A study of Homo sapiens with 5 samples.

Results

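The estrogen receptor gene ESR1 and the progesterone receptor gene PGR were examined for SMAD2 binding in T47D, an established human line of luminal, estrogen receptor-positive breast cancer. Members were taken by position, with earlier results of these data known when they were chosen. They are all SMAD2 peak summits within 50 kb of the ESR1 span (chromosome 6, 152011 to 152425 kb, hg19) and of the PGR span (chromosome 11, 100900 to 101001 kb, hg19, minus strand). These were 367 of the 233945 summits listed on chromosomes 1 to 22 and X in 4 libraries. Joining summits at most 200 bp apart gave 99 regions at ESR1 and 102 at PGR, of 115321 in all. The treated cells received palbociclib, an inhibitor of the cell cycle kinases CDK4 and CDK6, at 1 µM for 24 h, together with activin A at 50 ng/ml for 1.5 h (2 libraries, here the palbociclib libraries). Their comparison group received activin A at the same dose and time without the inhibitor (2 libraries, the activin libraries). All 4 libraries therefore come from activin-treated cells, and a further library of input DNA from untreated cells has no summit list here. T47D is a single line, and whether replicates were separate cultures is not given, and their spread may be technical.

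Activin A belongs to the TGF-β family of ligands, and its receptors phosphorylate SMAD2 and SMAD3, which bind DNA in complexes with SMAD4, often beside other factors of the cell type. ESR1 encodes estrogen receptor α, a ligand-activated transcription factor that defines luminal breast cancer, and several alternative starts are spread far upstream of its main one. PGR encodes the progesterone receptor, a classic estrogen-induced gene whose distal and proximal promoters give the long form PR-B and the shorter PR-A. Summit lists hold 1 position and 1 score for each called stretch of enrichment. The score is the authors' own and is read as −log10 q against input. Scores are given library by library as a description. Because read depth is unknown, libraries are set against each other by the percentage of each list's summits that score lower, and no difference in score is read as a difference in binding. Distances are counted from the main ESR1 start (about 152128 kb) and from the upstream end of the PGR span (101001 kb), both known to the nearest kb, and are positive in the direction of transcription. Lists held 62960 and 65207 summits in the palbociclib libraries, against 51535 and 54243 in the activin libraries. The percentage scoring lower depends on the make-up of each list, since more weak summits raise it for a strong one. Whether it favours the longer palbociclib lists was not tested. Stretches without a summit are not stretches shown to lack SMAD2.

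The highest scores of the PGR locus, and those of ESR1 in the palbociclib libraries, lay beside the starts of the genes, so the RefSeq promoter sequences of those starts are shown. Each runs from 250 bases before to 50 bases after a start, 5′ to 3′ on the gene's strand, from the GRCh38.p14 assembly. Capitals mark AGAC, the core letters that SMAD3 and SMAD4 recognise, or GTCT where it stands on the other strand. Of the 6 ESR1 starts in the table, the one shown lies 117155 bp after another, as the main start lies 117 kb after the beginning of the span. The 2 PGR starts shown lie 736 bp apart, and the remaining PGR entry, a further 14 bp downstream, is not shown.
ESR1 main start, chromosome 6: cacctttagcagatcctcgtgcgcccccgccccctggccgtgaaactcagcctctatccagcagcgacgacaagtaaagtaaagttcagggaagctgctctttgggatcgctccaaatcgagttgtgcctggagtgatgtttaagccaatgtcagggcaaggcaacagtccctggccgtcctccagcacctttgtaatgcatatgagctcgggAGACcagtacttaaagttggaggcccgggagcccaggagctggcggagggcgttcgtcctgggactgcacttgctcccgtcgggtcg
PGR upstream start, chromosome 11: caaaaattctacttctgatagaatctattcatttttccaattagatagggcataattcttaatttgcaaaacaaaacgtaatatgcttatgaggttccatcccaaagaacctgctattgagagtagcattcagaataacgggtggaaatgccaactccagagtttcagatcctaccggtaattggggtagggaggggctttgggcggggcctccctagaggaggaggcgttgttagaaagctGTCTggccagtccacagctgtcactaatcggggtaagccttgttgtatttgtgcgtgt
PGR downstream start, chromosome 11: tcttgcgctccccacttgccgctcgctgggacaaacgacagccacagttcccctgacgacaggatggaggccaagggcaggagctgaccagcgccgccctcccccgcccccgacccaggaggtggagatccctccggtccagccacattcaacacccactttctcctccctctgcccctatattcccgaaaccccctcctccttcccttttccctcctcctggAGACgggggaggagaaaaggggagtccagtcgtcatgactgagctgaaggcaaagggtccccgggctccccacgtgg
Each of these windows held 1 match to AGAC on either strand, beginning 37 bases before the ESR1 start and 8 and 27 bases before the upstream and downstream PGR starts. Of all 35116 promoter windows in the table, 84% held at least 1, with a median of 2. The letters GGTCA, the core of an estrogen receptor site, occurred once, 166 bases before the downstream PGR start, and 37.4% of all promoter windows held it. The full estrogen response element, which contains those letters, was absent from the 3 windows, as from nearly all others (found in 0.0570%). No match was found in them either for GTCTAGAC, which contains AGAC (0.202% of all windows), GGCGCC (19.2%), the full progesterone response element (0.390%), the AP-1 site TGACTCA (4.95%), the GATA letters AGATAA (10.3%) or the forkhead letters TGTTTAC (3.42%). Both strands were searched for each. A missing match says only that the letters are not in these windows, and the summits cannot be placed on them because the lists use another build.

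Near the PGR start every library listed a summit, though not all at the same position. The highest-scoring summit of the locus lay there in each library. Palbociclib replicate 1 had it at 100999745 with a score of 238, rank 893 of its list, and palbociclib replicate 2 at 100999653 with a score of 185, rank 1324. Activin replicate 2 had it at 100999669 with a score of 94.7, rank 2888. These 3 summits formed a single region, chr11:100999653-100999745, 1.3 kb inside the span. Activin replicate 1 had no summit there and its own highest one at 101000423, 0.6 kb inside the span, with a score of 89.0 and rank 3120. Thus 98.6% and 98.0% of summits scored lower in the palbociclib lists, against 93.9% and 94.7% in the activin lists, and the groups did not overlap. Such an order is common among the 23476 regions with a summit in every library: palbociclib was wholly above activin by this percentage in 39.5% and wholly below in 8.81%. The PGR start is not one of those regions, because activin replicate 1 had its summit at another position. These shares therefore come from an unlike set and are only a rough guide.

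**Figure D1:**
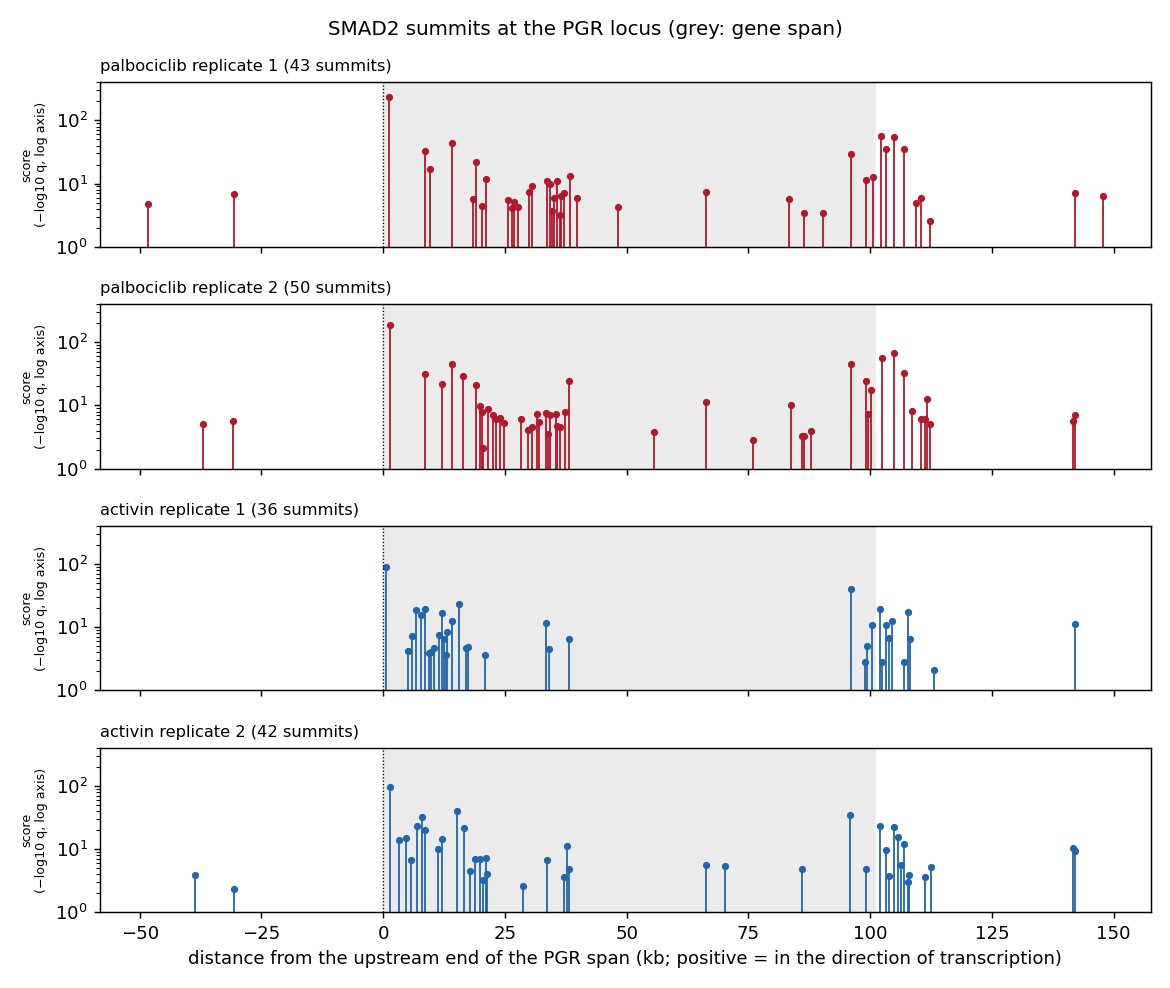
SMAD2 summits at the PGR locus in each library, by distance from the upstream end of the span in kb (horizontal) and score on a log axis (vertical), with the palbociclib libraries above the activin libraries and the gene span in grey. The highest summit stands at the start in each panel, and between 20 and 40 kb the palbociclib panels hold 18 and 20 summits, against 4 and 8 in the activin panels.

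Along the first 40 kb of PGR the 2 treatments differed in the number of summits per interval. In the first 20 kb, the palbociclib libraries listed 6 and 7 summits and the activin libraries 18 and 14, or 6.5 ± 0.71 against 16 ± 2.83 (SD, n = 2 each). In the next 20 kb, the palbociclib libraries listed 18 and 20 and the activin libraries 4 and 8, or 19.0 ± 1.41 against 6.0 ± 2.83. The differences of -9.5 and 13 summits both exceed the SDs, and in both intervals the groups do not overlap. The exact two-sided permutation test over libraries gave p = 0.333 for each, the smallest that 2 against 2 libraries allow, so this test cannot reach 0.05 here. Among all 20-kb windows of the genome with at least 16 summits, the palbociclib libraries lay wholly above the activin libraries in 26.1% and wholly below in 6.87%. With the full lists, both differences lay outside the range of windows elsewhere, the negative one narrowly. In windows laid at 4 offsets (3243 to 3327 windows each, without the PGR locus), differences ran from -9.0 to 11.5 summits. This range was not computed for trimmed lists or with a minimum score. The edges at 20 and 40 kb were drawn after the summits had been seen, which favours wide differences at PGR. The other windows were not placed by their summits, so the comparison cannot show that PGR is unusual.

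The fewer palbociclib summits of the first 20 kb scored higher within their lists. Their median score was 27.2 and 28.7 in the palbociclib libraries, against 7.45 and 14.7 in the activin libraries, and a median of 75.4% and 78.3% of the list scored lower, against 41.4% and 66.9%. How often other windows show such an order of medians was not computed. Of single regions found in every library, 39.5% ranked wholly higher with palbociclib and 8.81% wholly lower. Between 20 and 40 kb the summits were weak in all libraries, with medians of 6.13 and 6.28 in the palbociclib libraries and 5.54 and 4.46 in the activin libraries. A summit stands for a stretch of unknown width, so fewer and higher summits and more and lower ones can cover the same length of DNA.

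The same contrast appeared in 10-kb steps. From 0 to 10 kb there were 3 and 2 palbociclib summits against 8 and 7 activin summits, and from 10 to 20 kb 3 and 5 against 10 and 7. From 20 to 30 kb there were 7 and 9 palbociclib summits against 1 and 4 activin summits, and from 30 to 40 kb 11 and 11 against 3 and 4. The groups were thus apart in each of the 4 steps, palbociclib being lower in the first 2 and higher in the others. Of all 10-kb windows with at least 8 summits, palbociclib was wholly above in 18.8% and wholly below in 5.11%.

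**Figure D2:**
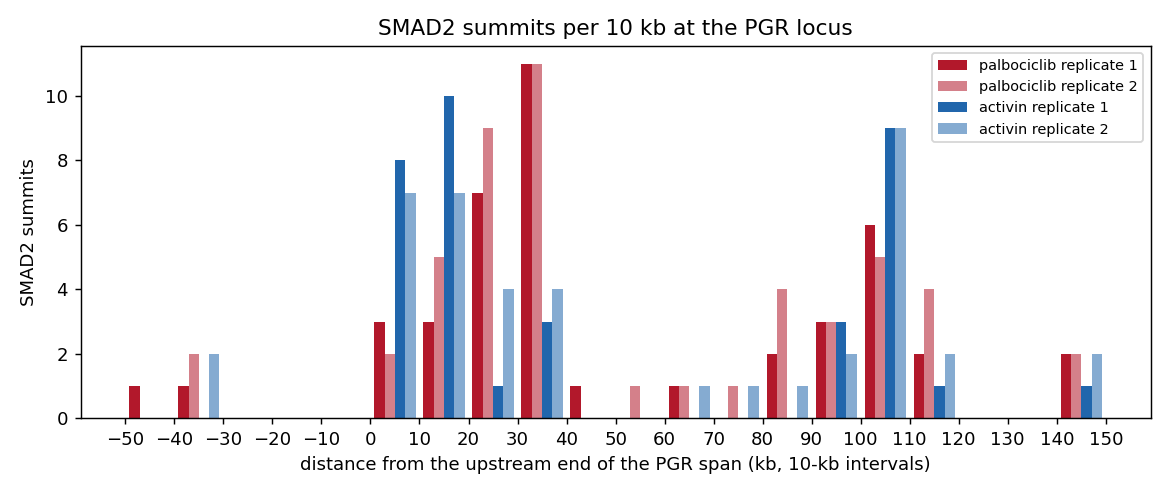
Number of SMAD2 summits per 10 kb along PGR (vertical) by distance from the upstream end of the span (horizontal), 1 bar per library, palbociclib libraries in red left of the activin libraries in blue. Activin bars are the taller ones from 0 to 20 kb and palbociclib bars from 20 to 40 kb, where both palbociclib libraries reach 11 summits in a single step.

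Regions of 1 treatment alone lay in both intervals. Found in both palbociclib libraries and neither activin library was chr11:100981867-100981903, 19.1 kb into the gene and so in the interval where palbociclib summits were fewer, with scores of 22 and 21.0, and the nearest activin summit lay 348 bp away. The next palbociclib-only regions by score within this part of the gene lay 30.5, 34.3 and 35.7 kb into the gene, with scores of 4.6 to 11. Found in both activin libraries and neither palbociclib library were regions at 5.8, 6.9 and 7.8 kb. The one at chr11:100994036-100994165 scored 18.8 and 23.1 in the activin libraries, with the nearest palbociclib summit 1566 bp away. At chr11:100993104-100993278 the activin scores were 15.4 and 32.4, with a palbociclib summit 634 bp away. That nearest summit belonged to a region all libraries shared, chr11:100992359-100992470 at 8.6 kb, which scored 32.5 and 31.9 in the palbociclib libraries and 19.4 and 19.8 in the activin libraries.

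Past 40 kb the PGR gene body was sparse. From 40 to 90 kb the palbociclib libraries listed 4 and 7 summits and the activin libraries 0 and 3, with scores up to 11.5. A second dense stretch lay around the 3′ end of the gene, 101 kb from the start of the span. From 90 to 120 kb there were 11 and 12 palbociclib summits against 13 and 13 activin summits (11.5 ± 0.71 against 13.0 ± 0, SD, n = 2 each; exact permutation p = 0.333). The densest 10 kb of the locus was here, from 98.9 to 108.6 kb, with 6 and 7 palbociclib and 11 and 10 activin summits. Both stretches were chosen by their summits, so the order of the groups in them is a description only. Of all 10-kb windows with at least 8 summits, palbociclib was wholly below in 5.11% and wholly above in 18.8%. No such share was computed for windows as long as the first stretch.

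Several regions at the 3′ end, chosen after their values were seen, ranked higher in the palbociclib lists. At chr11:100896049-100896111 the palbociclib summits scored 55.3 and 68.6, above 85.2% and 89.0% of their lists, while activin replicate 2 scored 21.9, above 75.0%, and activin replicate 1 had none. At chr11:100898515-100898758 the palbociclib scores were 56.4 and 57.2, above 85.5% and 87.0% of their lists, while activin replicate 1 scored 2.79, above 2.5% of its list, and activin replicate 2 had none. The activin libraries had a region of their own next to it, chr11:100898979-100899003, with scores of 19.3 and 23, 221 bp from a palbociclib summit. The palbociclib summits of the shared region at chr11:100893962-100894097 scored 35.8 and 32.5, above 79.8% and 80.1% of their lists, against 2.79 and 12.0 for activin, above 2.5% and 61.6%. In contrast, the shared region chr11:100904930-100905081, 96 kb into the gene, scored 29.8 and 44.7 with palbociclib, above 77.1% and 84.2% of their lists, and 39.7 and 35.1 with activin, above 82.9% and 82.4%, and the groups overlapped. Of the 7 PGR regions found in every library, 5 were wholly higher by this percentage with palbociclib, 1 was wholly lower and 1 overlapped. Among all 23476 regions found in every library, 39.5% were wholly higher and 8.81% wholly lower. The difference of so few PGR regions from these shares was not tested.

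Upstream of PGR summits were few. In the 50 kb before the span there were 2 and 2 palbociclib summits and 0 and 2 activin summits, with scores up to 6.94. No library listed a summit in the 30 kb directly before it. The antisense transcript PGR-AS1 overlaps the start of PGR in the RefSeq gene order, and the lists do not assign a summit to either transcript.

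At the main ESR1 start the arrangement of libraries resembled that at PGR. The region chr6:152128795-152128840, 0.8 kb into the gene, held summits of palbociclib replicate 1 at 152128816 (score 113, rank 4267), palbociclib replicate 2 at 152128795 (score 112, rank 3809) and activin replicate 2 at 152128840 (score 59.3, rank 5812). Activin replicate 1 had its summit at 152128371, with a score of 46.1 and rank 7735. Of the lists, 93.2% and 94.1% scored lower in the palbociclib libraries, against 84.9% and 89.2% in the activin libraries, so the groups were apart. The value of activin replicate 1 belongs to its summit outside that region. Among regions with a summit in every library, palbociclib was wholly above activin in 39.5% and wholly below in 8.81%, but the ESR1 start is not such a region. A neighbouring region before the start, chr6:152126770-152126854, scored 34 and 22.8 with palbociclib and 14.6 in activin replicate 2.

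The ESR1 gene itself carried summits mainly near this start. The densest 10 kb of the locus ran from -1.2 to 8.7 kb, with 10 and 9 palbociclib and 10 and 8 activin summits. In the first 20 kb there were 12 and 11 palbociclib summits against 11 and 6 activin summits (11.5 ± 0.71 against 8.5 ± 3.54, SD, n = 2 each). Those groups overlapped, and the exact permutation test gave p = 0.667. The difference of palbociclib minus activin in the first 20 kb was 3.0 summits at ESR1 and -9.5 at PGR, and this contrast between the genes was not tested. Over the following 277 kb of gene there were 6 and 12 palbociclib and 6 and 5 activin summits, or 26.2 per Mb as a mean over libraries, with scores up to 17.2.

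**Figure D3:**
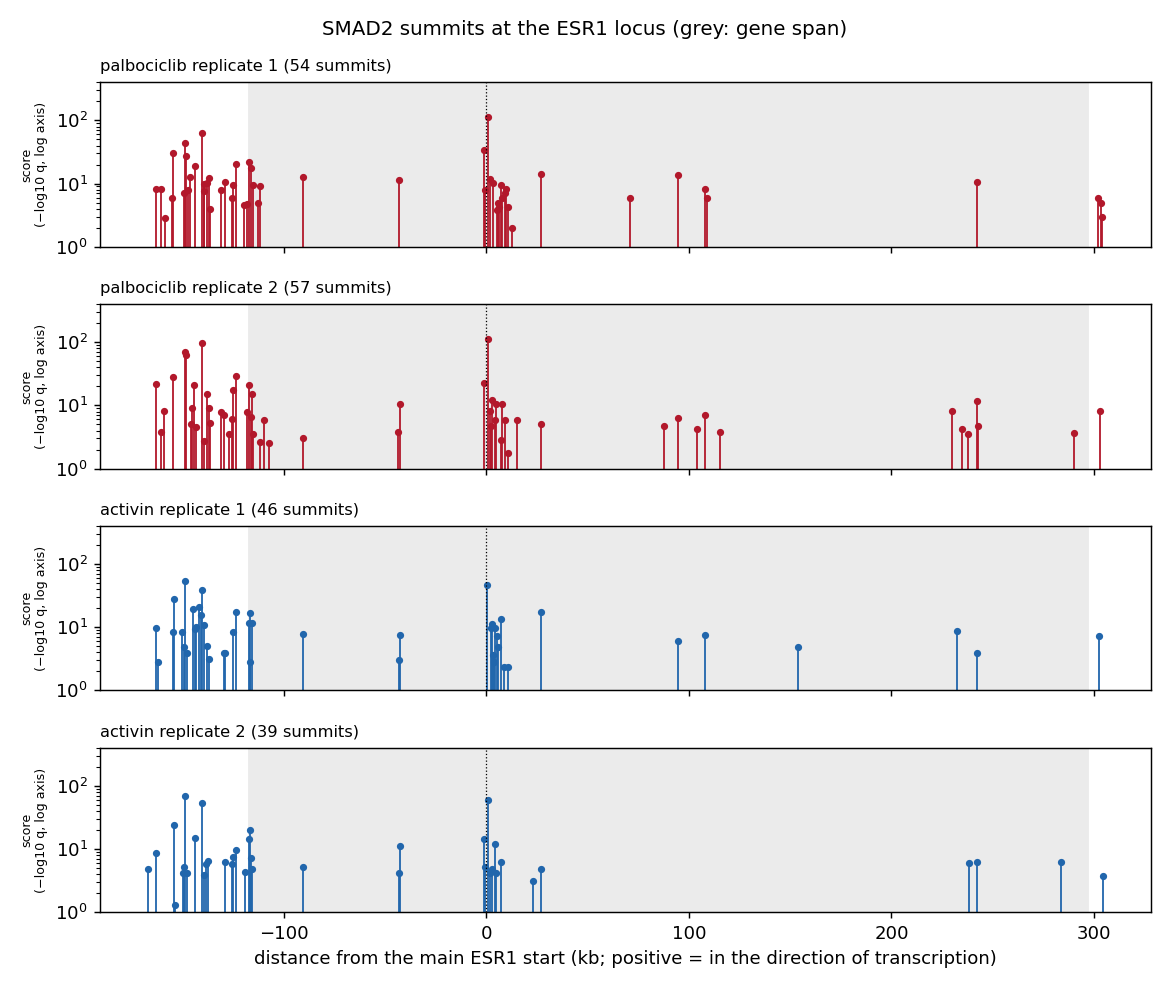
SMAD2 summits at the ESR1 locus in each library, by distance from the main start in kb (horizontal) and score on a log axis (vertical), palbociclib libraries above activin libraries, gene span in grey. Summits gather from 167 to about 107 kb upstream and within about 15 kb after the main start, and the rest of the gene is sparse in every panel.

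More than 50% of the ESR1 summits lay far upstream. The stretch from 167 to 100 kb before the main start held 29 and 29 palbociclib summits and 25 and 22 activin summits, 53.6% of all summits of the locus. The means were 29.0 ± 0 against 23.5 ± 2.12 (SD, n = 2 each), with exact permutation p = 0.333. The groups did not overlap, but the stretch was chosen after its summits were seen, and the palbociclib lists were longer. These counts were not divided by list length, and the share of genome windows of this length in the same order was not computed. The RefSeq table places ESR1 starts 151 and 117.2 kb before the main one, within this stretch, and the protein-coding gene CCDC170 lies upstream of ESR1. The strongest shared region was chr6:151987629-151987744, 140.3 kb upstream, with scores of 62.7 and 97.3 in the palbociclib libraries and 39.1 and 54.4 in the activin libraries. Second was chr6:151979341-151979474, 148.6 kb upstream, with palbociclib scores of 43.9 and 70.0 and activin scores of 54.8 and 70.3. In the activin libraries this region, and not the main start, held the highest-scoring ESR1 summit.

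Other upstream regions found in all libraries scored lower. At 154.6 kb upstream, chr6:151973236-151973646 scored 30.7 and 28.3 with palbociclib and 8.35 and 24.5 with activin. Those at 123.8 and 116.8 kb scored 20.3 to 29.1 with palbociclib and 9.74 to 20.3 with activin. Regions at 163.2, 143.9 and 125.1 kb scored 8.28 to 21.6 and 7.42 to 15.0. All 8 of the strongest shared ESR1 regions were upstream ones. Of the 16 shared by every library, 6 ranked wholly higher within their lists with palbociclib, 0 wholly lower and 10 overlapped, which is near the 39.5% of all shared regions that ranked higher. The promoter is not among them because activin replicate 1 had its summit 424 bp from the nearest of the others.

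**Figure D4:**
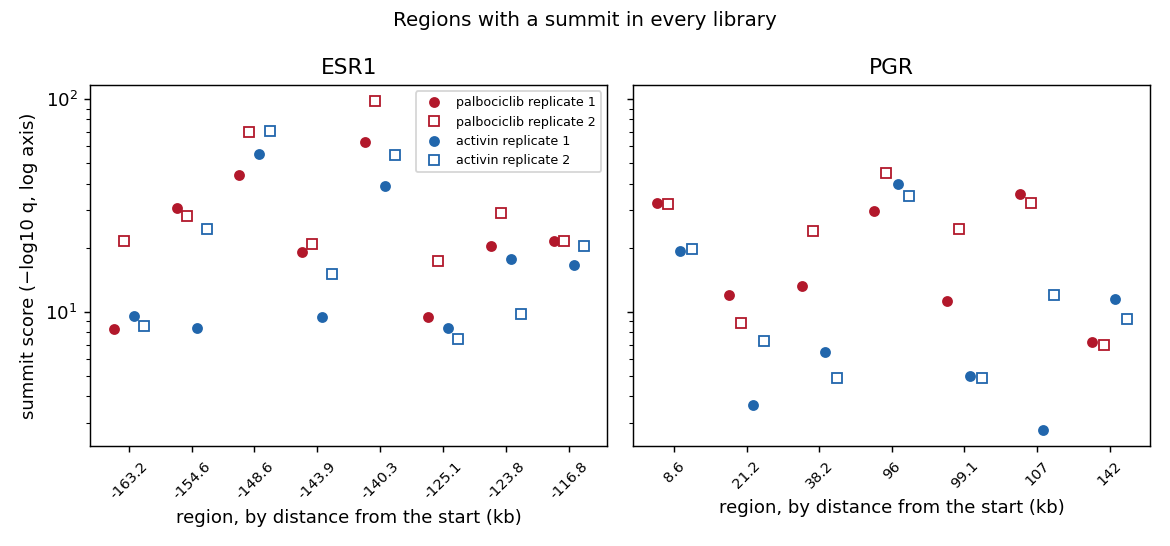
Scores (log axis) of regions with a summit in every library: the 8 strongest at ESR1 (left) and all 7 at PGR (right), ordered by distance from the start in kb, with palbociclib libraries in red left of activin libraries in blue and filled circles for replicate 1. The ESR1 regions at -148.6 and -140.3 kb stand highest, and scores from lists of unknown depth are shown side by side as a description.

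Between the upstream stretch and the promoter ESR1 was almost empty. From 100 to 10 kb before the main start, only the places at about 90.3 and 43 kb upstream held summits, and each did so in all libraries. Past the 3′ end of the span, on the side of SYNE1, whose RefSeq gene overlaps the end of ESR1, the palbociclib libraries listed 3 and 1 summits and the activin libraries 1 and 1, with scores up to 8.17.

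Palbociclib-only regions at ESR1 numbered 8 of 99 (8.08%, exact Clopper-Pearson 95% interval 3.55 to 15.3), where 5.29% of all regions were of this kind. Activin-only was 1 of 99 (1.01%, 0.0256 to 5.50), against 2.22% of all regions. Such intervals cover counting error only, and neighbouring regions are not independent. The strongest palbociclib-only region was chr6:151979934-151979944, 148.1 kb upstream, with scores of 27.7 and 62.7, 460 bp from an activin summit. The single activin-only region was chr6:152010639-152010694, 117.3 kb upstream, with scores of 11.7 and 14.2, 399 bp from a palbociclib summit. With a gap of 500 bp it joined a region of all 4 libraries.

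The classes of regions at PGR were counted likewise. All libraries shared 7 of 102 (6.86%, 2.80 to 13.6), against 20.4% of all regions and 16 of 99 at ESR1 (16.2%, 9.53 to 24.9). Activin-only regions were 7 of 102 (6.86%, 2.80 to 13.6), against 2.22% of all regions, and palbociclib-only ones 10 of 102 (9.80%, 4.80 to 17.3), against 5.29%. These PGR counts depend on the settings: 4 regions were in all libraries and 4 activin-only with a gap of 100 bp, 3 and 4 with a score of at least 5, and 3 were activin-only without the flanks. Palbociclib-only regions numbered 5 with a gap of 500 bp, with a score of at least 5, and with the lists trimmed to equal length. Single-library regions made up 58.8% at PGR and 51.5% at ESR1, where the figure for all regions was 50.8%. The regions are chained from the lists compared, so no p is given across them.

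The share of summits found again in another library was computed for each locus, with no test of the difference from the whole lists. Of palbociclib summits at PGR, 22% to 38.0% had an activin summit within 200 bp, and 46.0% to 55.8% had one in the other palbociclib library. Of activin summits, 30.6% to 45.2% had a palbociclib summit within 200 bp, and 38.1% to 44.4% one in the other activin library. Within treatments at ESR1 the share was 54.4% to 59.3% for palbociclib and 43.5% to 48.7% for activin. Across treatments at ESR1, the share was 38.6% to 44.4% for palbociclib summits in activin libraries and 47.8% to 61.5% for activin summits in palbociclib libraries. Over the whole lists the shares across treatments were 49.1% to 50.5% and 58.7% to 62.2%, and those within treatments 56.3% to 58.2% for palbociclib and 55.1% to 58.0% for activin. PGR thus lay below the whole lists within treatments as well as across them, though its highest palbociclib share, 55.8% (exact 95% interval 39.9 to 70.9), was hardly lower. This was not particular to PGR. ESR1 also lay below the whole lists for activin summits in the other activin library and for palbociclib summits in activin libraries. Its remaining shares overlapped those of the whole lists.

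**Figure D5:**
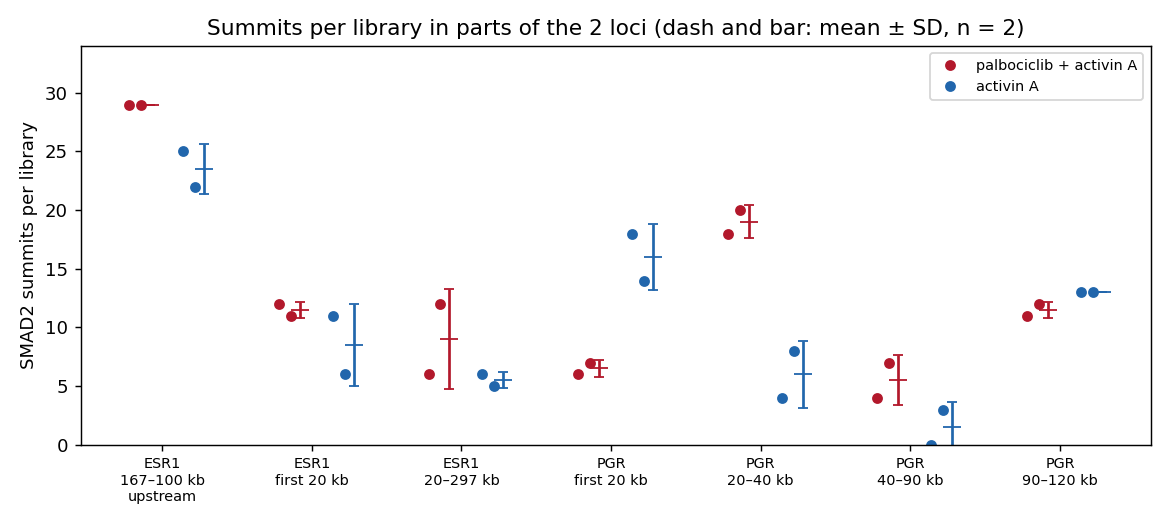
Summits per library (points) in parts of the 2 loci, palbociclib in red left of activin in blue, with the mean ± SD of 2 libraries as a dash and bar. The 2 PGR intervals of the first 40 kb differ in opposite directions, while at ESR1 the treatments overlap in 2 of 3 parts.

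Over each whole locus more summits were listed with palbociclib, as in the complete lists. ESR1 held 54 and 57 palbociclib summits against 46 and 39 activin summits (55.5 ± 2.12 against 42.5 ± 4.95, SD, n = 2 each, 1.31-fold, exact permutation p = 0.333). PGR held 43 and 50 against 36 and 42 (46.5 ± 4.95 against 39.0 ± 4.24, 1.19-fold, exact permutation p = 0.333). Of all windows as long as the ESR1 window, 34.4% had palbociclib wholly above activin, and of those as long as the PGR window 22.5%. It was wholly below in 2.96% and 3.28%. As shares of the lists, ESR1 held 85.8 and 87.4 of every 100000 palbociclib summits against 89.3 and 71.9 of activin summits. PGR held 68.3 and 76.7 against 69.9 and 77.4. In both loci these shares overlapped between the groups, whereas over all windows of each length palbociclib shares were wholly above in 18.7% and 15.9% and wholly below in 20.1% and 20.8%.

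Both loci were rich in summits beside the rest of the genome. The mean over 4 libraries was 49.0 at ESR1, where the median window of 514 kb holding any summit had 6.0, and 155 of 5277 windows had more. At PGR it was 42.8, where the median window of 201 kb had 2.5, and 57 of 11479 had more. About 50% of any whole list lies in its lower 50% by definition, and the loci held somewhat more such summits. At ESR1 the share was 55.6% and 64.9% with palbociclib and 58.7% and 69.2% with activin. At PGR it was 60.5% and 64.0% with palbociclib against 58.3% and 54.8% with activin. The difference from 50% was not tested. Summits in the top 10% of a list numbered at most 2 per library at ESR1 and exactly 1 at PGR, the one at the start.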

How the data were processed

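SMAD2-bound DNA from T47D cells was sequenced in 4 libraries. The submitters' processing notes name build hg19, MACS2 2.0.9, Bowtie 1.1.0 and Picard. These sources do not give filters or the order of steps. The authors deposited 1 summit list per library, with a −log10 q score at each summit. That unit is read from the values, whose minimum is 1.31. No reads are given, so depth is unknown and precision is limited by the number of libraries.

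Positions were made 1-based, summits on chromosomes 1 to 22 and X kept, and summits at most 200 bp apart chained. Groups were compared by exact two-sided permutation tests over libraries. Python 3.11.15, numpy 2.4.6, pandas 2.3.3, scipy 1.17.1 and matplotlib 3.10.9 were used. The chaining code was run on simulated, widely spaced regions whose summits lay less than 200 bp apart, and it returned all 1200 in their sets. That outcome follows from the spacing, so the run checks the code only. It does not show how well chaining separates crowded or shifted summits. Genome windows are tiles holding at least 1 summit, or the minimum stated. Named regions are, per locus, the 8 strongest found in all libraries, the 5 strongest of each treatment alone (by the lowest percentile of score), the start and the densest 10 kb. Further regions around the starts and the PGR 3′ end were named after their values were seen. Members and lists were chosen with earlier results of these data known, and the 10-kb and 20-kb intervals and the clusters after seeing the summits. Alternatives were a minimum score, trimmed lists, other gaps and flanks, a replicate block and leaving out libraries. The input library was not analysed here. Gene names and promoter sequences come from RefSeq on GRCh38.p14, and no coordinates were converted.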

Additional observations from a re-analysis of the deposited data

How the results depend on the processing

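The number of summits per locus (log2 0.39 at ESR1, 0.25 at PGR, palbociclib over activin) kept its direction with a minimum score of 5 and with flanks of 0 or 100 kb. Lists trimmed to equal length turned both, to -0.032 at ESR1 and -0.063 at PGR, and division by list length turned PGR to -0.023. Leaving out each library gave 0.27 to 0.51 at ESR1 and 0.14 to 0.37 at PGR. The PGR differences (-9.5 from 0 to 20 kb, 13 from 20 to 40 kb) kept their direction in every alternative run: -11.8 and 10.7 after division by list length, -5.5 and 11 with a score of at least 5, -9.5 and 8.5 in trimmed lists, and, without each library in turn, no nearer to 0 than -7.5 and between 11 and 15. Counts of regions were small and moved. With a gap of 100 bp, ESR1 had 9 regions in all libraries, 5 palbociclib-only and 2 activin-only, and PGR 4 in all and 4 activin-only. A gap of 500 bp left 0 activin-only regions at ESR1 and 5 palbociclib-only at PGR. A score of at least 5 left 8 in all libraries at ESR1, and 3 in all, 5 palbociclib-only and 4 activin-only at PGR. Trimmed lists left 4 palbociclib-only at ESR1 and 5 at PGR. Without flanks, ESR1 had 7 in all, 3 palbociclib-only and 0 activin-only, and PGR 3 activin-only. Leaving out each library gave 16 to 21 in all, 13 to 26 palbociclib-only and 4 to 15 activin-only at ESR1, and 7 to 13, 11 to 27 and 8 to 22 at PGR. Requiring 1 library of a group in place of 2 raises its count by construction. Without activin replicate 1, 13 PGR regions were in all libraries, against 7. The cause of the other changes was not tested. Same-numbered libraries did not deviate together (correlation -0.000792 over 23476 shared regions), so the numbers gave no sign of pairing. The replicate block left the summit differences as they were (0.39, 0.25, -9.5 and 13). For regions counted within same-numbered pairs it gave means of 33.5 palbociclib-only and 20 activin-only at ESR1, and 14.5 in both, 32 palbociclib-only and 24 activin-only at PGR. Of 31 named regions, 23 kept their number of libraries at a gap of 500 bp, 17 at 100 bp, 23 with a score of at least 5 and 29 in trimmed lists.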

Other observations

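At both receptor promoters the summit of activin replicate 1 lay apart from the summits of the other 3 libraries. The distance was 424 bp at ESR1 (152128371 against 152128795) and 678 bp at PGR (101000423 against 100999745). Across the genome, 253 regions held summits of exactly 3 libraries, all in the top 10% of their lists. The missing library was palbociclib replicate 1 in 51, palbociclib replicate 2 in 58, activin replicate 1 in 75 and activin replicate 2 in 69. The nearest summit of the missing library lay at a median of 436 bp for palbociclib replicate 1, 428.5 bp for palbociclib replicate 2, 384 bp for activin replicate 1 and 390.0 bp for activin replicate 2, so such offsets occurred with every library. It lay within 1000 bp in 38 of 51, 51 of 58, 74 of 75 and 61 of 69 regions, in the same order, most often for activin replicate 1. The ESR1 promoter region is outside this set, because activin replicate 2 scored above 89.2% of its list there. The pattern at the promoters was noticed in the data and its cause was not tested.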
